A study of Bombyx mori with 6 samples.

Results

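The members described here are 95 gene models of the silkworm, Bombyx mori, that encode subunits of oxidative phosphorylation or carry its pathway label. They were taken from a deposited expression table of 16877 gene models. The table's KEGG column placed 116 models in oxidative phosphorylation, and 21 of these were dropped because their protein name contained V-type or vacuolar. Of the 95, 89 were assigned by KEGG orthology number to a subunit of complexes I to V: 41 to complex I, 7 to complex II, 7 to complex III, 13 to complex IV and 21 to complex V. Another 4 were complex IV assembly factors, 1 was an inorganic pyrophosphatase and 1 was an uncharacterized protein. They were split by their counts in the control libraries. Of the 95, 18 had 0 to 3 counts summed over the 3 siNC libraries, and 77 had more.

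Oxidative phosphorylation is carried out in the inner mitochondrial membrane. Complexes I and II pass electrons from NADH and succinate to ubiquinone, complex III passes them to cytochrome c, and complex IV passes them to oxygen. Complexes I, III and IV pump protons, and complex V, the ATP synthase, uses the proton gradient to make ATP. Complexes I, III, IV and V also hold subunits encoded in mitochondrial DNA, while the members here are the nuclear subunits that KEGG lists. Insect genomes hold extra copies of some nuclear subunits, and in Drosophila many such copies are expressed mainly in testis. The fat body, in which insects store and mobilize fat and glycogen, oxidizes fatty acids and amino acids through this chain.

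RNA was sequenced in 6 libraries, 3 labelled siNC (a negative control small interfering RNA) and 3 labelled siUFBP1 (one against UFBP1, an endoplasmic reticulum membrane protein of the UFMylation pathway). The labels describe larvae of the P50 strain on day 3 of instar 5, each injected with 2.5 µg of siRNA. Both groups also received BmNPV, a baculovirus of the silkworm, 12 h after the siRNA. The experiment used 30 larvae with fat body taken at 24, 48 and 72 h, and no library has a time. The same labels also name the BmN cell line and describe its transfection, so whether a library came from larvae or cells was not settled. Nothing says that the libraries came from separate animals or cultures. The p-values therefore set the group difference only against the scatter among these libraries, and that scatter may be technical.

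The libraries held 25570725 to 53204480 counts. UFBP1 (KWMTBOMO13599) was at 36.5, 31.1 and 34.2 CPM (counts scaled to library depth with TMM, edgeR's trimmed mean of M-values, as for every CPM below) in siNC and at 32.7, 34.4 and 34.6 CPM in siUFBP1, with a log2 fold change of 0.00 ± 0.06 (SE; edgeR adjusted p = 0.951). Its transcript therefore does not check the labels, and the second group is called by its label. Markers of several tissues moved with the groups, while 40.0% of all 10729 genes tested were higher and 28.4% lower. The fat body list took 74.2% to 74.7% of all counts in siNC and 47.7% to 49.1% in siUFBP1, and 30 of its 39 tested genes were lower and 1 was higher, or 17 and 12 with library size alone in place of TMM. The silk gland list took at most 0.0530% in siNC and 10.1% to 11.8% in siUFBP1, with 5 of 6 tested genes higher. Of 67 tested testis and sperm flagellum genes 64 were higher and 1 lower, of 25 muscle genes 15 higher and 6 lower, of 21 midgut genes 18 higher and 2 lower, of 47 cuticle genes 39 higher and 1 lower, and of 25 hemocyte genes 4 higher and 18 lower (10 and 7 with library size alone). In the testis list 72 of 98 genes had 0 to 3 summed siNC counts. The same held for 67 of 83 midgut genes and 112 of 166 cuticle genes. Such genes, where tested, entered through their siUFBP1 counts and could only be called higher, so nothing is read from their calls. The part of these tissues in the results on respiratory genes was not tested. In such bulk libraries, fewer cells of a type and less RNA per cell cannot be told apart.

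The subunits that both groups express changed little after scaling. Of the 72 members with more than 10 summed siNC counts, each with 86 or more, 15 were higher in siUFBP1 and 25 were lower by edgeR's quasi-likelihood test at a Benjamini-Hochberg adjusted p of 0.05, and 32 did not pass. Among all 9582 genes tested with more than 10 siNC counts, 32.9% were higher and 31.8% were lower. The split depended on how the libraries were scaled: with library size alone 71 members were higher and 0 lower, and with upper quartile scaling 9 were higher and 42 lower. At least 2-fold differences passed for 3 members, all higher, and for no member lower, where 13.5% and 5.72% of genes passed that call. The 3 libraries of each group did not overlap for 37 members, 11 higher and 26 lower, against 67.8% of genes.

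The other 5 of the 77 members had 4 to 10 summed siNC counts, and they entered the test through their siUFBP1 counts. All 5 were called higher, which makes 20 of 77 higher, where 34.9% of the 9887 genes with more than 3 siNC counts were higher and 30.8% lower; nothing is read from these 5 calls. Of the 72, 65 had a log2 fold change within 0.5 of 0, compared with 5075 of 9582 genes with more than 10 siNC counts. Their median log2 fold change was -0.04, with the middle of the distribution from -0.20 to 0.10, and that of the 9582 genes was 0.01, from -0.42 to 0.51. With library size alone the median of all genes tested moved by 0.80 and with upper quartile scaling by -0.14, so the values below are to be read relative to such shifts.

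**Figure D1:**
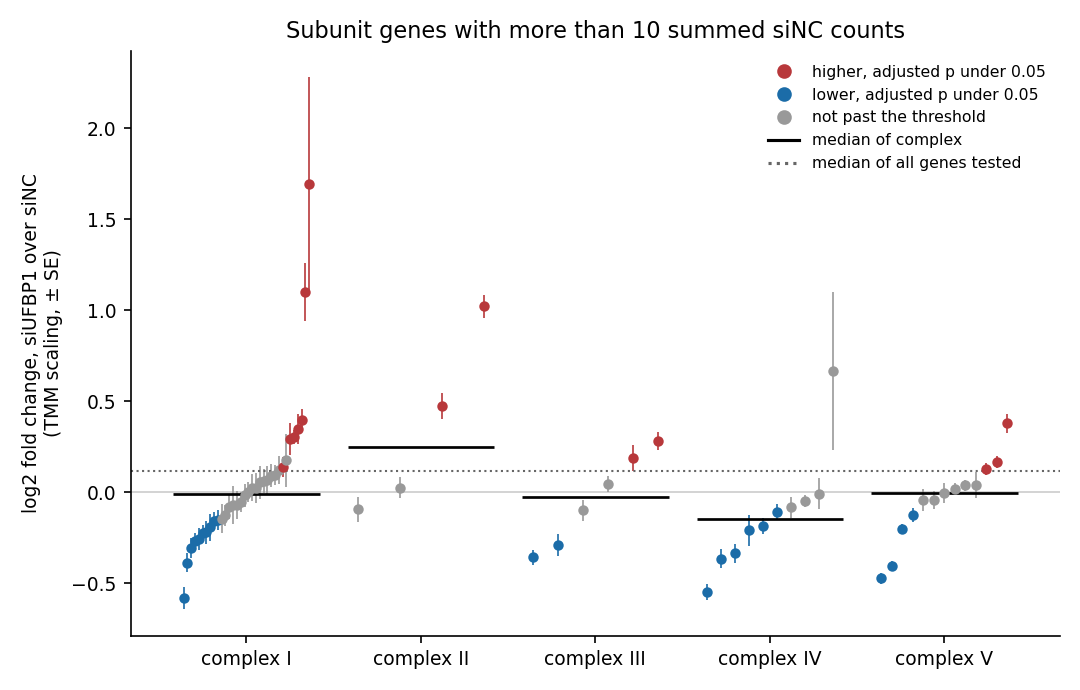
Log2 fold change of siUFBP1 over siNC (y axis, TMM scaling, bars ± SE) for each subunit gene with more than 10 summed siNC counts, grouped by complex on the x axis and ordered by value. Points past adjusted p 0.05 are red when higher and blue when lower. Most points lie within 0.5 of 0; in complex IV 6 of 10 were lower and none was higher, in complex II 2 of 4 were higher, and with library size alone every one of these subunits was higher.

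Summed over subunits with more than 10 siNC counts, complex V was the most abundant at 3067 ± 59.9 CPM (SD, n = 3) in siNC and 2741 ± 13.0 CPM in siUFBP1. Complex I was at 916 ± 4.30 and 882 ± 12.6 CPM, complex III at 255 ± 4.69 and 243 ± 1.32 CPM, and complex IV at 489 ± 2.66 and 428 ± 0.894 CPM. In these 4 complexes each siUFBP1 library was below each siNC library. Complex II was the exception, at 73.6 ± 1.54 CPM in siNC and 93.3 ± 3.59 CPM in siUFBP1, with each siUFBP1 library above each siNC library. Adding the copies with 0 to 10 siNC counts, which are described further on, turned the direction for complexes I and III: over all their members they were at 916 ± 4.30 and 255 ± 4.65 CPM in siNC and at 931 ± 13.2 and 265 ± 1.92 CPM in siUFBP1, with each siUFBP1 library above each siNC library. Complex II then stood at 73.7 ± 1.58 and 144 ± 2.37 CPM, while complexes IV and V stayed lower, at 456 ± 1.40 and 2785 ± 12.9 CPM in siUFBP1. As a share of all counts without scaling, all 5 complexes were higher in siUFBP1: their subunits together took 0.364% ± 0.00696 of counts in siNC and 0.578% ± 0.0280 in siUFBP1.

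**Figure D2:**
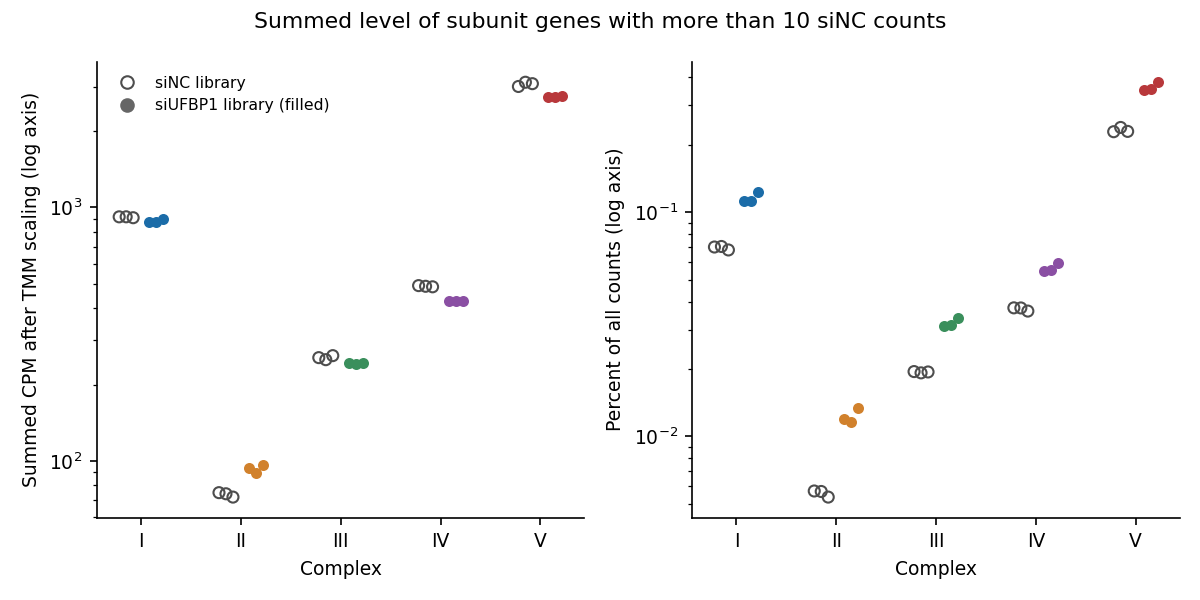
Summed level of the subunit genes with more than 10 siNC counts in each library (open, siNC; filled, siUFBP1; 3 each), by complex on the x axis, as CPM after TMM scaling (left, log axis) and as percent of all counts (right, log axis). On the left the siUFBP1 libraries lie below siNC in complexes I, III, IV and V and above in complex II; on the right they lie above in all 5.

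Complex I, the NADH dehydrogenase, had 34 subunit genes with more than 10 siNC counts, of which 7 were higher and 10 lower, 17 did not pass, and their median log2 fold change was -0.01, while with library size alone all 34 were higher. Its most abundant gene per length was NDUFA13 (KWMTBOMO12682), an accessory subunit, at 58.9 ± 5.01 FPKM (the authors' length-corrected fragment level, used here to compare genes) in siNC. NDUFA13 had 65.2, 57.9 and 55.9 CPM in siNC and 62.2, 55.7 and 61.0 CPM in siUFBP1, so the groups overlapped (log2 fold change 0.00 ± 0.05, SE; edgeR adjusted p = 0.983), and with upper quartile scaling it passed as lower, at -0.14. NDUFS1 (KWMTBOMO01423), an iron-sulfur subunit on the path of electrons from NADH, had the largest fall of the complex. It was at 37.2, 41.6 and 43.7 CPM in siNC and 25.8, 28.9 and 27.2 CPM in siUFBP1, without overlap (log2 fold change -0.58 ± 0.06; edgeR adjusted p = 9.00e-08), but it was higher, by 0.22, with library size alone. NDUFB8 (KWMTBOMO08791), an accessory subunit of the membrane arm, was lower, from 40.8 ± 0.765 to 31.2 ± 1.86 CPM (log2 fold change -0.39 ± 0.05; edgeR adjusted p = 2.38e-06), and also turned higher with library size alone (0.41).

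NDUFA12 was represented by a pair of genes that both groups expressed. One copy (KWMTBOMO00110) had 1.96, 2.75 and 1.68 CPM in siNC and 4.62, 4.47 and 4.78 CPM in siUFBP1. All siUFBP1 values were above all siNC values (log2 fold change 1.10 ± 0.16; edgeR adjusted p = 7.33e-06). The other copy (KWMTBOMO00726) was more abundant and lower in siUFBP1, at 14.9 ± 0.162 and 13.2 ± 1.02 CPM (log2 fold change -0.19 ± 0.07; edgeR adjusted p = 0.0289). Within a library, where scaling cancels, the less abundant copy held 9.62% ± 2.39 of the summed NDUFA12 FPKM in siNC and 21.0% ± 1.67 in siUFBP1. RefSeq places the copies on different chromosomes.

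NDUFA1 (KWMTBOMO03066), a small membrane subunit, had the largest fold change among the complex I genes with more than 10 siNC counts, with uneven values. It had 86, 0 and 0 counts in the siNC libraries and 124, 136 and 352 counts in siUFBP1, so that siNC replicate 1 at 4.01 CPM lay among the siUFBP1 values of 3.65, 4.11 and 4.79 CPM. Its log2 fold change was 1.70 ± 0.58 (edgeR adjusted p = 0.0161). Without siNC replicate 1 the estimate was 10.30, while without siNC replicate 2, siNC replicate 3 or siUFBP1 replicate 3 the adjusted p was 0.0799, 0.0602 and 0.0884, and DESeq2 gave 0.592. The other complex I genes that were higher were NDUFS4, NDUFB2, NDUFA9, NDUFS6 and NDUFS3, with log2 fold changes from 0.14 to 0.40. Among those lower were NDUFB5, NDUFA11, NDUFA10, NDUFA8, NDUFB11 and the acyl carrier protein NDUFAB1, from -0.27 to -0.15, and each of these was higher with library size alone.

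Complex II, the succinate dehydrogenase, has 4 subunits and is also an enzyme of the citric acid cycle. SDHD (KWMTBOMO14983), a membrane anchor, was at 13.95, 14.4 and 12.3 CPM in siNC and 27.8, 26.7 and 28.1 CPM in siUFBP1. The groups were far apart (log2 fold change 1.02 ± 0.07; edgeR adjusted p = 1.13e-10). SDHB (KWMTBOMO15500), the iron-sulfur subunit, was also higher, at 20.3, 17.5 and 16.2 CPM against 24.6, 24.1 and 25.9 CPM (log2 fold change 0.47 ± 0.07; edgeR adjusted p = 1.12e-05). SDHA (KWMTBOMO01346), the flavoprotein that binds succinate, was at 21.8 ± 1.58 and 20.3 ± 1.67 CPM and did not pass (log2 fold change -0.10 ± 0.07; edgeR adjusted p = 0.246). SDHC (KWMTBOMO13907), the other membrane anchor and the most abundant subunit per length in siNC at 19.5 FPKM, had a log2 fold change of 0.02 and did not pass. The mRNAs of the 4 subunits thus differed in fold change among themselves, and under library size alone all 4 were higher.

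Complex III, the cytochrome bc1 complex, had 6 genes with more than 10 siNC counts, of which 2 were higher and 2 lower. UQCRC2 (KWMTBOMO06660), a core protein, was at 58.9, 55.2 and 55.8 CPM in siNC and 43.5, 44.9 and 44.1 CPM in siUFBP1, without overlap (log2 fold change -0.36 ± 0.04; edgeR adjusted p = 5.74e-07). The Rieske iron-sulfur protein UQCRFS1 (KWMTBOMO02269), which takes electrons from ubiquinol, was also lower, from 59.2 ± 6.80 to 48.3 ± 0.355 CPM (log2 fold change -0.29 ± 0.06; edgeR adjusted p = 0.000260). UQCRB (KWMTBOMO02907), the most abundant subunit per length, was higher, at 39.0 ± 2.39 and 47.3 ± 0.511 CPM (log2 fold change 0.28 ± 0.05; edgeR adjusted p = 4.56e-05). UQCRQ (KWMTBOMO07814), a small subunit, passed at a log2 fold change of 0.19 ± 0.07 (edgeR adjusted p = 0.0275) although its groups overlapped, and the call was lost without any of 4 of the 6 libraries (adjusted p 0.0517 to 0.138). With library size alone all 6 genes were higher.

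Complex IV, the cytochrome c oxidase, had 6 of 10 such genes lower and 0 higher by edgeR, whereas with library size alone all 10 were higher; the median log2 fold change of the 10 was -0.15. COX7A (KWMTBOMO07368), named from its KEGG and Pfam entries, was at 75.4, 75.0 and 77.8 CPM in siNC and 49.5, 51.6 and 54.2 CPM in siUFBP1. The groups did not overlap (log2 fold change -0.55 ± 0.04; edgeR adjusted p = 1.61e-09). COX7C (KWMTBOMO00789) was lower as well, at 37.3 ± 1.57 and 28.8 ± 1.38 CPM (log2 fold change -0.37 ± 0.05; edgeR adjusted p = 7.52e-06). COX6B, COX4, COX5B and the gene with the COX8 entry followed, from -0.34 to -0.11. The gene with the COX8 entry (KWMTBOMO06232) also carries an AAA-lid domain of a RuvB-like helicase in its Pfam entry, so its identity is uncertain. COX5A (KWMTBOMO03120), the most abundant gene of the complex per length at 132 ± 4.70 FPKM in siNC, did not pass (log2 fold change -0.05 ± 0.04; edgeR adjusted p = 0.223). NDUFA4 (KWMTBOMO03176) had 171, 0 and 181 counts in siNC and 298, 271 and 644 in siUFBP1, with siNC replicate 2 at 0, and did not pass (log2 fold change 0.67 ± 0.44; edgeR adjusted p = 0.187).

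Complex V, the ATP synthase, held the most abundant members. The c subunit (KWMTBOMO03317), which forms the proton-driven ring, had the highest level per length of all members at 442 ± 10.02 FPKM in siNC, and was at 481, 476 and 471 CPM in siNC and 416.8, 415.5 and 410.7 CPM in siUFBP1 (log2 fold change -0.20 ± 0.03; edgeR adjusted p = 3.54e-06). The catalytic head is made of alpha and beta subunits. Alpha (KWMTBOMO11351) was at 556, 579 and 578 CPM in siNC and 432, 424 and 437 CPM in siUFBP1, without overlap (log2 fold change -0.41 ± 0.03; edgeR adjusted p = 4.96e-10). The table lists a pair of abundant beta genes. Beta isoform 2 (KWMTBOMO05069) was lower, from 619 ± 21.6 to 445 ± 3.33 CPM (log2 fold change -0.47 ± 0.03; edgeR adjusted p = 1.05e-10). Beta isoform 1 (KWMTBOMO05075) was at 688 ± 21.0 and 706 ± 6.78 CPM and did not pass (log2 fold change 0.04 ± 0.03; edgeR adjusted p = 0.270), but was lower, at -0.10, with upper quartile scaling. Within a library isoform 2 held 45.1% ± 0.149 of the summed beta FPKM in siNC and 36.5% ± 0.215 in siUFBP1, with no overlap between the groups; this share and that of NDUFA12 were chosen after their values were seen and have no test. No source used here says how reads shared between such copies were counted.

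The gamma subunit (KWMTBOMO16197), the rotor shaft, was higher, at 187, 189 and 192 CPM in siNC and 208, 211 and 219 CPM in siUFBP1 (log2 fold change 0.17 ± 0.03; edgeR adjusted p = 0.000143). Subunit f (KWMTBOMO10128) of the membrane part was higher with a log2 fold change of 0.38, and subunit O (KWMTBOMO13723), which joins the stalk to the head, was higher at 0.13 ± 0.03 (edgeR adjusted p = 0.00322). Subunit b (KWMTBOMO04168), the stalk itself, was lower at -0.12 ± 0.04 (edgeR adjusted p = 0.00880), and its adjusted p was 0.0538 without siUFBP1 replicate 1. The calls of gamma and O were lost with upper quartile scaling, where O was at -0.01, and alpha, b, c and beta isoform 2 were higher with library size alone. The other 5 genes with more than 10 siNC counts, coupling factor 6, d, delta, e and g, did not pass.

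Beside the subunits, the copper chaperone COX17 and the heme A synthesis enzyme COX15 were lower (log2 fold changes -0.36 and -0.32), COX11 was higher at 0.35, and COX10 did not pass at 0.07; with library size alone COX17 and COX15 were higher. Inorganic pyrophosphatase (KWMTBOMO04966) had the largest fall of all 77 members, at 84.2, 90.3 and 88.7 CPM in siNC and 49.3, 51.2 and 47.8 CPM in siUFBP1 (log2 fold change -0.83 ± 0.04; edgeR adjusted p = 3.08e-12). This enzyme hydrolyses the pyrophosphate released by biosynthetic reactions and is no part of a respiratory complex. With library size alone it was the member that did not pass, at -0.03.

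A separate class of members was almost silent in siNC. The 18 members with 0 to 3 summed siNC counts had 7 counts among them in all 3 siNC libraries, and 14 had 0. Of the 18, 17 reached a mean of at least 1 CPM in siUFBP1, with a median over the 18 of 9.15 CPM. They made up 18.3% of the 93 members at 1 CPM or more in siUFBP1, and 6.80% of the 9045 gene models at that level had 0 to 3 siNC counts. Since these members were chosen by their siNC counts, the difference between the groups is a description and no test is given. The 3 siUFBP1 libraries differed little: the coefficient of variation of a gene had a median of 5.54% in this class, compared with 3.81% for members with more than 10 siNC counts. In all, 17 of the 18 were subunits of complexes I to V, and they held 3.45% to 3.59% of the counts of all complex subunits in the siUFBP1 libraries.

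The highest summed siNC counts inside the class were 2, among them those of UQCRFS1 and SDHA copies. Just outside it lay the O, gamma, beta and b copies of the ATP synthase with 4, 5, 6, 10 and 10 summed siNC counts, and the next member after a wide gap had 86. With these 5 there were 22 such copies of complex subunits, and each belonged to a subunit that had another gene with more than 10 siNC counts. They covered 16 of the 65 subunits: 6 in complex I, 2 in complex II, 1 in complex III, 3 in complex IV and 4 in complex V. Several gene models share an NCBI gene number: the SDHA pair, the NDUFS1 pair, the beta pair and the 3 gamma models. Those of SDHA, beta and gamma may be pieces of 1 gene. Both NDUFS1 models carry the same Pfam domains, so they may be separate copies.

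**Figure D3:**
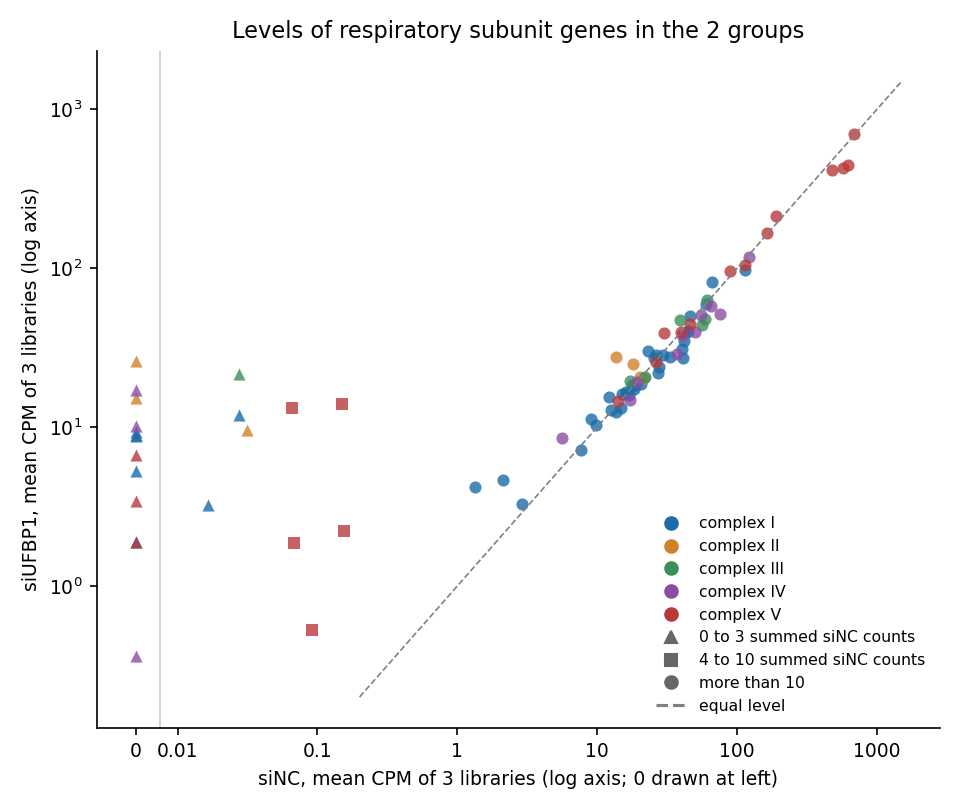
Mean CPM in siNC (x axis, log scale, 0 drawn at the left edge) against mean CPM in siUFBP1 (y axis, log scale) for the subunit genes of complexes I to V, coloured by complex, 3 libraries per group. Genes with more than 10 siNC counts (circles) run along the line of equal level, and copies with 0 to 3 counts (triangles) or 4 to 10 counts (squares) stand apart at the left, most of them between 1 and 30 CPM in siUFBP1.

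In complex I, 7 low members stood for 6 subunits. The copies of NDUFS1 (KWMTBOMO10155 and KWMTBOMO16489) had 0 counts in siNC and 8.82, 8.31 and 9.20 CPM and 5.79, 4.83 and 5.32 CPM in siUFBP1, at least 196-fold and 117-fold higher against a floor of 3 counts over the siNC group. The NDUFS3 copy (KWMTBOMO02667), for a subunit of the peripheral arm, had 0 in siNC and 8.56, 9.70 and 8.68 CPM in siUFBP1. The NDUFS8 copy (KWMTBOMO00307), for an iron-sulfur subunit near the ubiquinone site, had 0 in siNC and 10.47, 8.49 and 9.01 CPM in siUFBP1. These 3 subunits belong to the core of the complex that bacteria share. Accessory subunits were NDUFA6 (KWMTBOMO04535), with 0, 0 and 1 counts in siNC and 3.32, 3.26 and 3.14 CPM in siUFBP1, and NDUFB9 (KWMTBOMO11992), with 0 counts in siNC and 2.00, 1.84 and 1.81 CPM in siUFBP1.

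Of the genes with more than 10 siNC counts for these subunits, NDUFS1 fell as given above. NDUFS3 (KWMTBOMO11780) passed as higher at 0.14 ± 0.05 (edgeR adjusted p = 0.0332), with overlapping groups, and did not pass without siNC replicate 1 or 2 or without siUFBP1 replicate 3 (adjusted p 0.0986 to 0.295). NDUFS8 (KWMTBOMO10596), NDUFA6 (KWMTBOMO04534) and NDUFB9 (KWMTBOMO11974) had log2 fold changes of 0.09, 0.06 and -0.08 and did not pass.

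Complex II had low copies of both of its matrix subunits. The SDHB copy (KWMTBOMO08409), uncharacterized by its NR name and identified by its KEGG, Swiss-Prot and Pfam entries, had 0 counts in siNC and 25.6, 27.3 and 25.9 CPM in siUFBP1, at least 575-fold higher. It was the most abundant of the low members. The SDHA models had 15.6, 15.7 and 14.4 CPM (KWMTBOMO00597) and 9.53, 9.42 and 9.76 CPM (KWMTBOMO00596) in siUFBP1, with 0 and 2 summed counts in siNC. No low copy was found for the membrane anchors SDHC and SDHD.

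In complex III the Rieske copy (KWMTBOMO00410) had 0, 2 and 0 counts in siNC and 777, 722 and 1515 in siUFBP1, a ratio of 707 (95% exact binomial interval 196 to 5844). In complex IV the COX4 copy (KWMTBOMO11810) had 0 counts in siNC and 17.1, 16.5 and 17.9 CPM in siUFBP1, and the COX5B copy (KWMTBOMO03941) had 0 and 11.7, 9.85 and 9.10 CPM. These are at least 382-fold and 218-fold higher. The COX7C copy (KWMTBOMO00790) was the weakest of the class, with 0 counts in siNC and 17, 11 and 19 in siUFBP1, at least 7.35-fold higher. COX4 and COX5B are nuclear subunits that surround the catalytic core. Their genes with more than 10 siNC counts, COX4 (KWMTBOMO11812) and COX5B (KWMTBOMO12189), were lower at -0.19 ± 0.04 and -0.11 ± 0.05 (edgeR adjusted p = 0.000642 and 0.0387), and both were higher with library size alone. The COX5B call did not hold with DESeq2 (adjusted p = 0.0752), limma-voom (0.0581) or without siNC replicate 2, siUFBP1 replicate 1 or siUFBP1 replicate 2 (0.120 to 0.178).

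**Figure D4:**
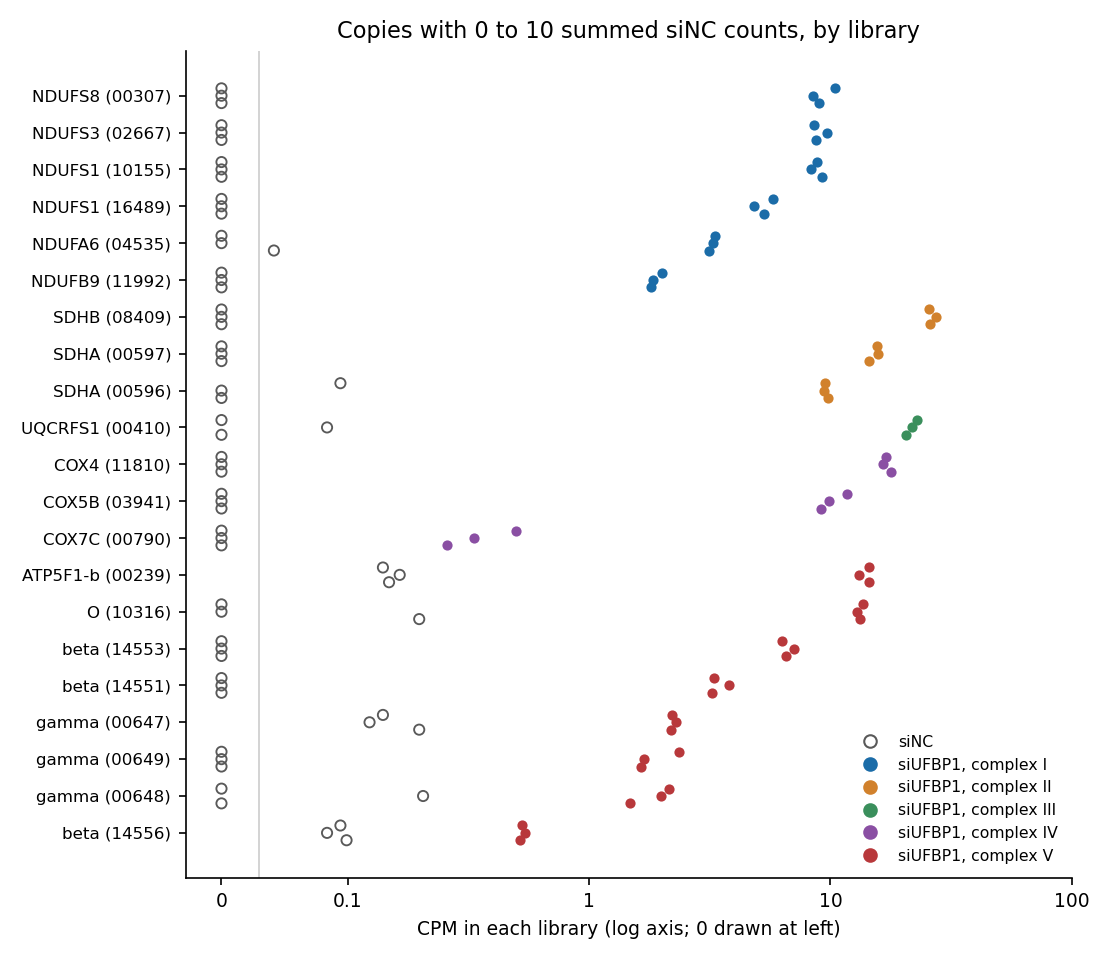
CPM in each library (x axis, log scale, 0 drawn at the left edge) for 21 copies of complex subunits with 0 to 10 summed siNC counts, 1 row per gene model with the last 5 digits of its number. Open points are the 3 siNC libraries and filled points the 3 siUFBP1 libraries, coloured by complex. In every row all filled points lie to the right of all open points, from 0.259 CPM for COX7C to 27.3 CPM for SDHB.

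Complex V held 3 low members and all 5 members with 4 to 10 siNC counts. The beta models KWMTBOMO14553 and KWMTBOMO14551 had 0 counts in siNC and means of 6.65 ± 0.380 and 3.44 ± 0.317 CPM in siUFBP1. A beta fragment (KWMTBOMO14556), marked partial in its name, had 2 counts in each siNC library and 18, 18 and 38 in siUFBP1, a ratio of 5.79 (95% exact binomial interval 2.54 to 16.3). Of the gamma models, KWMTBOMO00649 had 0 counts in siNC and 2.35, 1.69 and 1.65 CPM in siUFBP1. The other gamma models, KWMTBOMO00647 with 3, 3 and 4 siNC counts and KWMTBOMO00648 with 0, 5 and 0, had 75, 76 and 160 and 73, 66 and 109 counts in siUFBP1, ratios of 14.6 (7.83 to 30.75) and 23.3 (9.84 to 72.3). The O copy (KWMTBOMO10316) had 0, 0 and 4 counts in siNC and 13.7, 12.8 and 13.3 CPM in siUFBP1, a ratio of 219 (85.5 to 805). The b copy (KWMTBOMO00239) had 3, 4 and 3 counts and 14.5, 13.1 and 14.5 CPM, a ratio of 93.4 (50.7 to 195). As these members are set apart by their siNC counts, no test is given for them either. No such copy was found for alpha, c, d, delta, e, f, g or coupling factor 6.

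Per length, the low copies were a minor part of most subunits. In the siUFBP1 libraries the copy held a median of 15.9% of the summed FPKM of its subunit over 17 copy genes, and 0.465% at most in any siNC library. This share is taken within a library, so scaling between libraries does not enter, and models of the same NCBI gene were joined over their summed length. In complex II the copies held more than 50%: 57.7%, 59.8% and 56.7% of SDHB and 55.1%, 57.7% and 52.7% of SDHA in the 3 siUFBP1 libraries. The Rieske copy held 30.3% ± 1.19, the COX4 copy 26.7% ± 1.45, the NDUFS8 copy 25.7% ± 1.44 and the COX5B copy 22.5% ± 2.60. Joined in this way, the NDUFS1 models held 21.2% ± 1.86. Both NDUFS1 models carry the same domains, so joining averages their levels, means of 4.37 and 2.74 FPKM in siUFBP1. If they are separate copies, 21.2% understates their summed share. Shares of 15.9% to 11.9% were read for NDUFS3, NDUFA6, NDUFB9, O and b. In the ATP synthase the gamma copy held 2.92% ± 0.401 and the beta copy 0.808% ± 0.0603, beside beta genes that were themselves among the most abundant members. The share of SDHB was above that of SDHA in each of the 3 libraries, while the order of COX4 and NDUFS8 was not the same in every library.

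**Figure D5:**
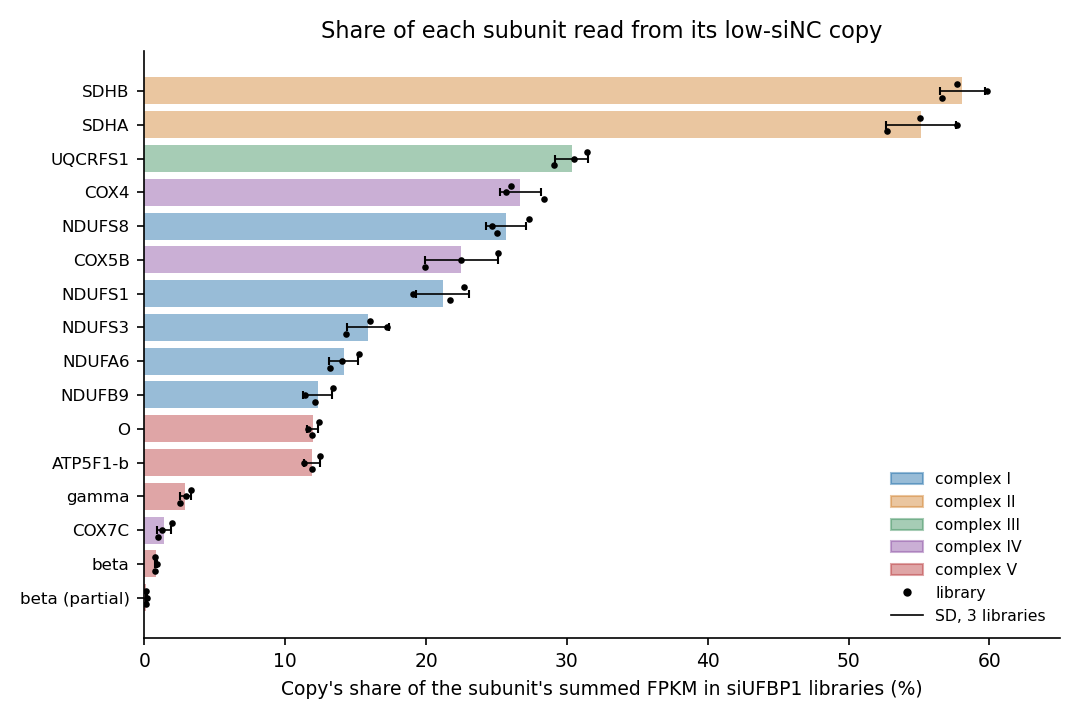
Share of each subunit's summed FPKM that came from the copy with 0 to 10 summed siNC counts, for 16 copy genes in siUFBP1 libraries (x axis, percent), by subunit on the y axis and coloured by complex. Bars are means, points the 3 libraries and whiskers the SD. SDHB and SDHA stand at 58.1% and 55.2%, and gamma, COX7C and both beta rows lie under 4%. The NDUFS1 bar averages its models over their summed length, which understates their summed share if they are separate copies.

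In RefSeq's gene order (assembly ASM3026992v2) 15 pairs of a low or border copy with the gene that both groups express could be placed, and 12 of these lay on different chromosomes. The other 3 shared a chromosome: the NDUFA6 pair had 1 gene between them, the COX4 pair 3 and the NDUFB9 pair 16. The gene models of the tables follow a build that no source used here names, so positions are not printed.

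The testis and sperm flagellum list was higher in the same libraries as the low copies. Of its 98 genes, 64 had 0 counts in siNC, and the summed level of the list ran from 37.2 to 40.4 CPM in siNC and from 580 to 624 CPM in siUFBP1. Testis-specific serine/threonine-protein kinase 2 (KWMTBOMO15186) and tektin-4-like (KWMTBOMO16172), a protein of the sperm flagellum, had 0 counts in siNC and means of 89.1 and 41.2 CPM in siUFBP1. Among list genes at 1 CPM or more in siUFBP1, some had 0 to 3 siNC counts, as the low copies did. They numbered 35 of 58 in the testis list, 9 of 17 in the midgut list and 1 of 38 in the cuticle list. The muscle, silk gland, fat body and hemocyte lists had 0. Of all 9045 gene models at that level, 6.80% had 0 to 3 siNC counts. The muscle list ran from 1483 to 1574 CPM in siNC and from 2541 to 2559 CPM in siUFBP1, the cuticle list from 571 to 589 and from 1511 to 1516 CPM, and the midgut list from 37.5 to 42.3 and from 97.0 to 99.1 CPM. The part of any of these tissues in the low copies was not tested.

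Some subunits lay outside the KEGG label and were looked up after values were seen. A cytochrome bc1 subunit 1 gene (KWMTBOMO00025) had 0 counts in siNC and 620, 740 and 1309 in siUFBP1, at least 417.6-fold higher, and a subunit 2 gene (KWMTBOMO12793) had 0 and 184, 155 and 393, at least 115-fold. An ADP,ATP carrier protein-like gene (KWMTBOMO00146), of the family that exchanges ATP for ADP across the inner membrane, had 0 counts in siNC and 47.0, 46.7 and 43.1 CPM in siUFBP1, at least 987-fold. The abundant ADP/ATP translocase (KWMTBOMO14732) did not pass (log2 fold change -0.06 ± 0.03; edgeR adjusted p = 0.0873), and the carrier copy held 4.02%, 4.05% and 3.64% of their summed FPKM. NDUFV1 (KWMTBOMO01752), the subunit of complex I that binds NADH, was lower at -0.27 ± 0.05 (edgeR adjusted p = 5.36e-05), and higher, at 0.53, with library size alone. ATP synthase subunit s (KWMTBOMO06315) was higher at 0.64 ± 0.11 (edgeR adjusted p = 7.02e-05).

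Other genes of the pathway were counted from lists of product names, beside 40.0% higher and 28.4% lower among all genes tested. Of 20 assembly factors, 10 were higher and 5 lower (17 and 0 with library size alone, 8 and 7 with upper quartile scaling), with a median log2 fold change of 0.19, and none had 3 or fewer siNC counts. OXA1L, which inserts proteins into the inner membrane, was at 51.6, 47.8 and 46.0 CPM in siNC and 33.1, 32.4 and 32.2 CPM in siUFBP1 (log2 fold change -0.57; edgeR adjusted p = 7.21e-09), and turned higher, at 0.23, with library size alone. NDUFAF7, a methyltransferase of complex I assembly, was higher at 0.88. The succinate dehydrogenase assembly factor 3 was lower at -0.80, and did not pass with library size alone (0.0021). Of 15 carriers and shuttles, 4 were higher and 3 lower (12 and 0 with library size alone, 2 and 5 with upper quartile scaling). The silent carrier copy is among the 4. It entered through its siUFBP1 counts and could only be called higher, so nothing is read from its call. The electron transfer flavoprotein alpha subunit and its ubiquinone oxidoreductase, which bring electrons from fatty acid oxidation to ubiquinone, were lower at -0.74 and -0.70 (edgeR adjusted p = 2.76e-12 and 1.41e-09), and did not pass with library size alone (0.06 and 0.10). Of 7 genes of mitochondrial gene expression, 4 were higher and 1 lower (7 and 0 with library size alone, 2 and 2 with upper quartile scaling). A mitochondrial transcription termination factor (KWMTBOMO01886) was at 1.63, 1.97 and 1.48 CPM in siNC and 6.09, 6.86 and 5.76 CPM in siUFBP1 (log2 fold change 1.85; edgeR adjusted p = 3.04e-09), and transcription termination factor 5 was higher at 1.05. Dimethyladenosine transferase 1, which methylates mitochondrial ribosomal RNA, was lower at -0.41, and mitochondrial transcription factor A did not pass.

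The remaining low member (KWMTBOMO05199) is an uncharacterized protein that KEGG lists in the pathway and whose Pfam entry names a vacuolar ATP synthase subunit, so it is no subunit of complexes I to V. It had 0 counts in siNC and 11.6, 10.7 and 10.8 CPM in siUFBP1, at least 241-fold higher.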

How the data were processed

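Whole-number counts and FPKM per gene model in 6 libraries (3 per group) were deposited by the authors in one table. Per the labels' protocols, library preparation used SMARTER mRNA-Seq reagents, and fastp and HISAT2 are named in the submitters' processing notes. No source used here gives the counting tool, strand setting, gene lengths or genome build. From the counts, 10729 gene models were tested with edgeR's quasi-likelihood test (edgeR 4.0.16, R 4.3.3; filterByExpr, TMM scaling, Benjamini-Hochberg adjustment over all of them, threshold 0.05), without a block. The 6148 models left out held 0.0479% of counts. By counting error alone, a count of 0 in a library allows 3 counts. On the TMM scale these are 0.140, 0.123 and 0.148 CPM in siNC replicates 1, 2 and 3. Intervals and floors cover only counting error. Some zeros stood beside clear levels in the same group. NDUFA4 had 171, 0 and 181 counts in siNC, and testis-specific serine/threonine-protein kinase 6 (KWMTBOMO07999) had 30.3, 0 and 31.7 CPM in siUFBP1. The fold bounds given above do not allow for zeros of that kind. Within a group, counts differed by more than sampling noise in each pair of libraries. Chi-square per degree of freedom was 3.11 to 3.56 in siNC and 2.68 between siUFBP1 replicates 1 and 2. It was 14.4 and 10.8 between siUFBP1 replicate 3, the deepest library, and replicates 1 and 2. Each library was counted once, which does not show that the libraries are independent. The procedure was tested on simulated data.

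The members and gene lists were chosen with earlier results of these data known. Named by rule were the most abundant member of each complex, low members with at least 1 CPM in siUFBP1, called members with at least 2-fold change, the 2 highest and 2 lowest called members of each complex, the other copy of each subunit with a low copy, and up to 3 called genes of each other list by adjusted p. The values of 1 subunit are not reported here, although it stays in the counts. Other names complete a count or were chosen after their values were seen. An exact permutation test of summed complex levels had been planned and was not made, since a p-value over chosen members would not be independent of that choice. Alternatives were DESeq2 1.42.0, limma 3.58.1 (voom, and trend on log2(FPKM + 1) and log2(FPKM + 0.1)), other scalings and filters, a replicate block and leaving out each library. Members were matched by NCBI gene number to RefSeq's gene table (88 of 95) for neighbours only.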

Additional observations from a re-analysis of the deposited data

How the results depend on the processing

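Scaling set the direction of most members that both groups express. Of the 77, 76 were higher and 0 lower with library size alone, 75 and 0 with limma on log2(FPKM + 1), and 74 and 0 with log2(FPKM + 0.1), where FPKM carries no TMM scaling. With upper quartile scaling 42 were lower. With a 2-fold minimum 8 were higher and 0 lower, or 3 and 0 without the 5 members with 4 to 10 siNC counts. Nothing is read from the calls of those 5. Of the 9887 genes tested with more than 3 siNC counts, 1594 were higher and 548 lower at that minimum. The median log2 fold change of the 77 was 0.79 with library size alone, 0.74 and 0.76 on the FPKM scales, -0.15 with upper quartile scaling, 0.013 without a count filter, -0.0036 with DESeq2, -0.043 with the border at 10 or at 30 counts, and -0.0439 to -0.0111 when 1 library was left out. Less the median of all genes tested, which include those with 0 to 3 siNC counts, it was -0.12 (-0.049 against the 9887 genes with more than 3), and -0.21 without a filter, -0.12 with a mean of at least 10 counts, -0.12 with DESeq2, -0.13 with limma-voom, 0.058 and -0.060 on the FPKM scales, and -0.17 to -0.13 without 1 library. With the replicate block these medians were 0.00052 and -0.12, and 19 members were higher and 21 lower. Libraries of the same replicate number showed no shared deviation (correlation of deviations 0.0242, -0.0187 and 0.0184). Such correlations cannot tell whether the libraries were prepared in matched sets. The replicate block took the NDUFA1 and COX5B calls past the threshold (edgeR adjusted p 0.0609 and 0.0757). Changes of sign, given as log2 fold changes with library size alone, log2(FPKM + 1) and log2(FPKM + 0.1) in that order, were as follows. Complex medians were 0.77, 0.74 and 0.75 for III and 0.65, 0.62 and 0.63 for IV. In complexes I and II the values were 0.22, 0.18 and 0.20 for NDUFS1, 0.41, 0.38 and 0.39 for NDUFB8, 0.72, 0.67 and 0.70 for NDUFB9, and 0.70, 0.60 and 0.67 for SDHA. In complex III they were 0.51, 0.48 and 0.49 for UQCRFS1 and 0.44, 0.41 and 0.42 for UQCRC2. In complex IV they were 0.43, 0.40 and 0.41 for COX7C, 0.75, 0.73 and 0.73 for COX5A, 0.25, 0.22 and 0.22 for COX7A, 0.61, 0.59 and 0.60 for COX4, and 0.69, 0.66 and 0.67 for COX5B. In complex V they were 0.60, 0.58 and 0.58 for c, 0.68, 0.65 and 0.65 for b, 0.32, 0.30 and 0.31 for beta isoform 2, and 0.39, 0.37 and 0.37 for alpha. Upper quartile scaling changed the sign of beta isoform 1 (-0.10), NDUFA13 (-0.14), O (-0.012) and NDUFS3 (-0.0032). The complex V median went from 0.038 to -0.10 over 18 genes, which include the 5 with 4 to 10 siNC counts. Over the 13 with more than 10 siNC counts it was already -0.0029 with TMM, so nothing is read from that change. Scaling moves all genes of a library together: less the median of all genes tested, that of the 77 stayed at -0.12 with library size alone and with upper quartile scaling. The FPKM fits also used another gene filter, an added constant and another model, and there that difference was 0.058 and -0.060. The number of low members with at least 1 CPM in siUFBP1 was 17 to 21 under the alternatives run on it. These include a class border at 10 or at 30 summed siNC counts, which brings the members with 4 to 10 counts into the class.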
